A study of Mus musculus with 16 samples.

Results

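Kidneys of PJ34-treated mice were compared with and without ischemia reperfusion injury. The 4 injured libraries (group IRP) and the 4 normal libraries (group NP) were taken by their titles and make up 8 of the 16 libraries of the series. Every mouse was a male C57BL/6 aged 12 weeks, and both groups had received PJ34, a small-molecule inhibitor of PARP enzymes, so that the contrast measures injury in inhibitor-treated mice and not the action of the inhibitor. In ischemia reperfusion the blood supply of the kidney is interrupted and then allowed to return. The remaining 8 libraries came from mice given vehicle, 4 after the same injury (IRV) and 4 normal (NV), and are used only where named. RNA was extracted from kidney tissue, selected for poly(A) tails and sequenced. The dose of PJ34, the day of collection, any sham surgery of the normal mice and whether each library stems from its own animal are not given in the sources used here, and the p-values therefore cover only how far the libraries of a group differ.

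The deposited table lists 40472 genes, of which 13614 held enough counts to be tested and 6737 of those averaged at least 20 CPM (counts scaled to library size) over the IRP and NP means. Totals ran from 4963638 to 6008832 counts in IRP and from 1161138 to 1639849 in NP, so no IRP library was as shallow as any NP library. Library depth and injury therefore cannot be told apart within these 8 libraries. Receptor genes of smell, taste, pheromones and trace amines, which kidney is not known for, summed in CPM to 239.7 to 496.7 in IRP, against 6215 to 9680 in NP. Within IRV, replicates 1 and 2 were shallow (973812 and 1659983 counts, receptor sums of 9998 and 6329 CPM), whereas replicates 3 and 4 were deep (5365139 and 6169748 counts, 417.6 and 500.2 CPM). IRV thus offers a comparison of injured with normal kidneys at shallow depth (IRV replicates 1 and 2 against the 4 NV libraries, all shallow, in mice without PJ34), and its values are given beside those of IRP and NP as "the shallow vehicle comparison". A further fit over all 16 libraries, called the set-adjusted fit, took the deep or shallow set as a covariate; since IRP and NP share no set, its set term rests on the 4 IRV libraries. Defining kidney genes were present in every IRP and NP library: Slc34a1 was at least 1223 CPM, Umod at least 1036 CPM and the podocyte gene Synpo at least 55.05 CPM.

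The proximal tubule reabsorbs most of what the glomerulus filters and burns fatty acids in dense mitochondria to do so, which makes it the segment most easily hurt when oxygen is cut off. Surviving tubule cells lose transporters, show injury proteins such as KIM-1 and NGAL, and re-enter the cell cycle, while macrophages, lymphocytes and matrix-producing fibroblasts collect around tubules that fail to recover. PARP enzymes attach ADP-ribose to proteins at DNA breaks and consume NAD as they do so, and an inhibitor such as PJ34 is used to limit that consumption after injury.

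Relative to NP, IRP kidneys had 1596 (23.7%) of the 6737 genes of mean CPM 20 or more higher and 1334 (19.8%) lower, at an adjusted p of 0.05 or less (edgeR quasi-likelihood test, Benjamini-Hochberg over all 13614 genes). All 4 IRP libraries lay above all 4 NP libraries for 1634 of these genes (24.3%) and below them for 990 (14.7%). The median log2 change was 0.04 over the 6737 genes and -0.01 over all genes tested. Over all 13614 genes, 2671 (19.6%) were higher and 3264 (24%) lower. Below 20 CPM the calls leaned downward, with 1075 higher and 1930 lower of 6877 genes. The called lower genes of at least 20 CPM summed to 289005 CPM in IRP and 712035 CPM in NP, and the called higher genes to 144744 CPM in IRP and 80572 CPM in NP.

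Size separated the rises from the falls. Of the rises, 451 reached 2-fold, 107 reached 4-fold and 25 reached 8-fold, and of the falls 315, 165 and 149. Of the 165 falls of at least 4-fold, 162 belonged to genes whose level also differed by at least 2-fold between the deep and the shallow IRV libraries, a measure described further on, against 4 of the 107 rises of that size. With counts scaled by library totals alone the median of all genes moved to 0.57, and the counts of at least 20 CPM became 4367 higher and 290 lower; the changes given here are relative to a median near 0.

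**Figure D1:**
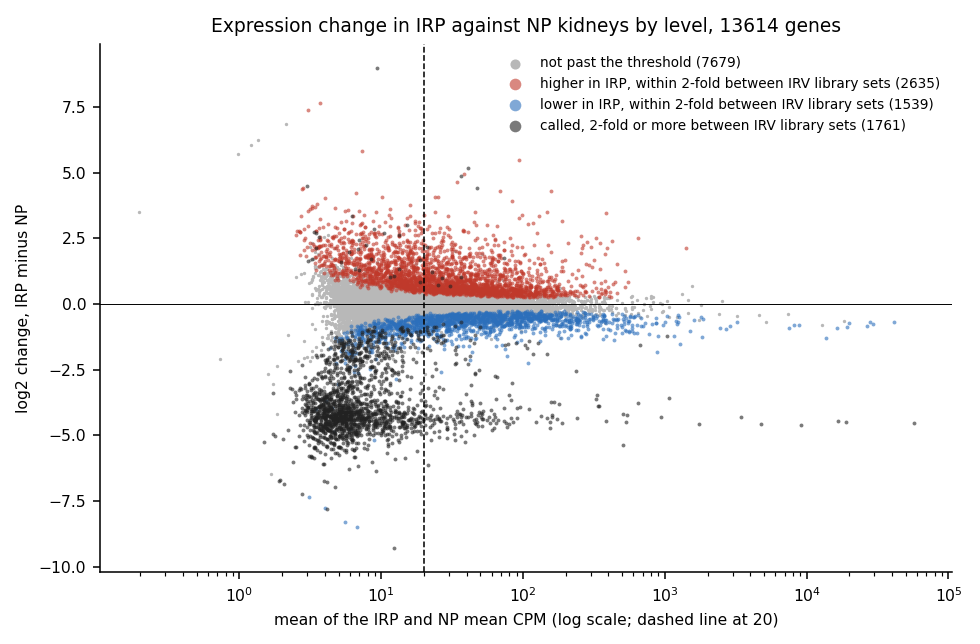
Log2 change, IRP minus NP, of the 13614 tested genes against the mean of the IRP and NP mean CPM (log scale), with a dashed line at 20 CPM. Coloured points passed the threshold and lay within 2-fold between the deep and shallow IRV libraries; dark points passed it and did not. Most dark points lie in a band near -4 that runs through all levels, while the coloured falls stay mostly above -2.

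The 16 largest rises by log2 change among genes of at least 20 CPM were 4 immunoglobulin constant-region genes of B and plasma cells and 12 genes of injured tubule, phagocytes, antigen presentation and matrix. The immunoglobulin genes were Igkc, Ighg2c, Igha and Ighm, with changes of 5.48 ± 0.63, 5.17 ± 1.21, 4.86 ± 0.80 and 4.42 ± 0.83; Igha did not pass in the set-adjusted fit (adjusted p = 0.103, edgeR), and all but Igkc differed by at least 2-fold between the deep and shallow IRV libraries. The other 12 were Aoc1, Havcr1, Ctss, Lyz2, Lcn2, Ltbp2, Mpeg1, H2-Ab1, Mmp14, Mmp2, Cd74 and H2-Aa. These 12 all passed in the set-adjusted fit and in the shallow vehicle comparison, and none differed by 2-fold between the deep and shallow IRV libraries. These checks all draw on the IRV libraries and are not separate from each other. Aoc1, the enzyme that breaks down histamine and other diamines, had 118, 34.1, 57.6 and 86.5 CPM in IRP replicates 1 to 4, against 2.88, 1.49, 3.26 and 2.34 CPM in NP replicates 1 to 4. Its lowest IRP library was thus above its highest NP library, and the log2 change was 4.93 ± 0.49 (SE; adjusted p = 7.4e-06, edgeR), with 4.94 ± 0.33 in the shallow vehicle comparison.

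Tubular injury markers rose almost without exception. Of 20 members of at least 20 CPM, 19 were higher and none lower, with a median log2 change of 2.12 beside 0.04 over all genes of that level. Havcr1, whose product KIM-1 lets injured proximal tubule cells engulf debris, had 114, 21.7, 41.7 and 83.3 CPM in IRP replicates 1 to 4, against 3.84, 0.744, 3.26 and 3.12 CPM in NP replicates 1 to 4. The IRP libraries differed among themselves more than 5-fold, but each was above every NP library, and the log2 change was 4.62 ± 0.65 (SE; adjusted p = 7.8e-05, edgeR). Lcn2, the gene of the iron-carrier-binding protein NGAL, had 66.9, 19.02, 36.4 and 57.6 CPM in IRP replicates 1 to 4, against 2.88, 0.744, 6.52 and 1.56 CPM in NP replicates 1 to 4. The groups did not overlap, and the change was 4.08 ± 0.53 (SE; adjusted p = 4.6e-05, edgeR). Spp1, the secreted phosphoprotein osteopontin, was by far the most abundant member, with 3052, 1569, 2066 and 2482 CPM in IRP replicates 1 to 4, against 569, 496, 510.0 and 538 CPM in NP replicates 1 to 4. Its log2 change was 2.12 ± 0.18 (SE; adjusted p = 2.3e-06, edgeR), and on the CPM scale its increase was the largest among the genes named. Clu, a secreted chaperone, rose by 2.14 ± 0.18 (SE; adjusted p = 2.3e-06, edgeR), from library values that again did not overlap (635 ± 141 CPM in IRP and 144 ± 15.5 CPM in NP, SD, n = 4 each).

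Further members of the list were the surface protein gene Cd24a (1.70 ± 0.14), the doublecortin-domain gene Dcdc2a (2.51 ± 0.25), the annexin gene Anxa2 (2.25 ± 0.23) and Cp, the copper-carrying ferroxidase ceruloplasmin (2.32 ± 0.26), all past the threshold. The summed list came to 3508 to 6534 CPM in the IRP libraries, against 1243 to 1349 CPM in the NP libraries. The shallow vehicle comparison called 18 higher and none lower of the same members, with a median of 1.75, and the set-adjusted fit 13 higher and none lower, with a median of 1.82.

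**Figure D2:**
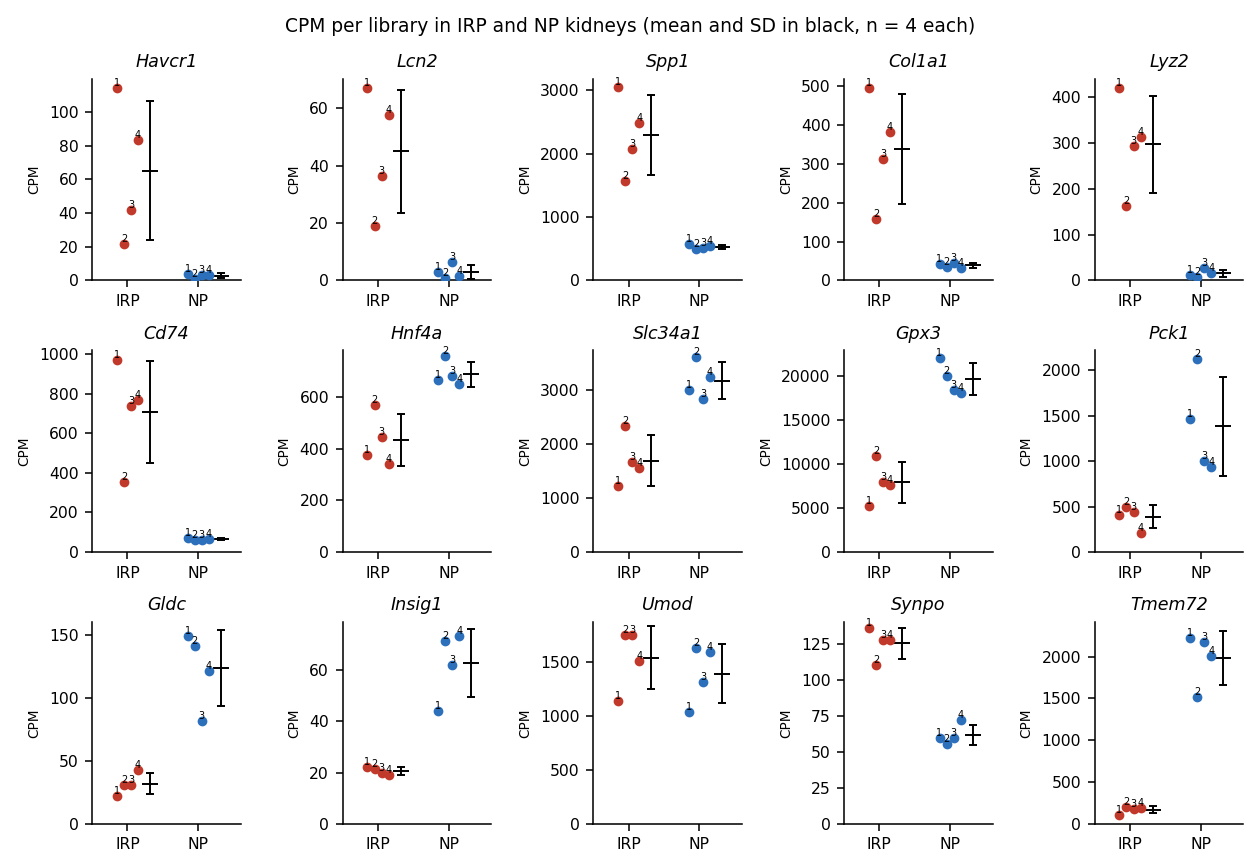
CPM of 15 genes in each IRP library (left, red, numbered by replicate) and each NP library (right, blue), on linear axes that start at 0, with the mean and SD beside the points. IRP replicate 2 is the lowest IRP library for Havcr1, Lcn2, Spp1, Col1a1, Lyz2 and Cd74 and the highest for Hnf4a, Slc34a1, Gpx3 and Pck1.

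Among transcription factors of tubule identity, 8 were higher and 5 lower of 26 members (30.8% and 19.2%), shares near the 23.7% and 19.8% over all genes of that level, with a median of -0.04. Those that rose included Sox4, a factor of embryonic and regenerating epithelia, with 105, 50.7, 75.8 and 85.1 CPM in IRP replicates 1 to 4, against 22.1, 14.9, 13.05 and 21.9 CPM in NP replicates 1 to 4. All IRP libraries were above all NP libraries, and the change was 2.13 ± 0.27 (SE; adjusted p = 3.3e-05, edgeR). Klf6, an early-response zinc finger factor, rose by 2.04 ± 0.25 (SE; adjusted p = 2.7e-05, edgeR) and Ehf, an ETS factor of epithelia, by 1.69 ± 0.16 (SE; adjusted p = 5.9e-06, edgeR). Hnf4a, which drives the proximal tubule program, was among the falls, with 378, 573, 447 and 343 CPM in IRP replicates 1 to 4, against 666, 761, 683 and 652 CPM in NP replicates 1 to 4. The groups did not overlap, and the change was -0.67 ± 0.16 (SE; adjusted p = 0.0025, edgeR). Maf, another factor of the list, fell, with a change of -0.64 ± 0.16 (SE; adjusted p = 0.004, edgeR). Sox4 had 2.02 ± 0.28 and Hnf4a -1.05 ± 0.19 in the shallow vehicle comparison and both passed there, while Maf, at -0.61 ± 0.21, did not pass (adjusted p = 0.075, edgeR).

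Extracellular matrix genes rose as a block. Of 32 fibroblast and matrix members, 31 were higher and 1 lower, with a median of 2.05, and the list summed to 5774 to 10269 CPM in the IRP libraries, against 3239 to 4089.8 CPM in the NP libraries. Col1a1, a chain of the fibrillar collagen of scars, had 496, 157, 314 and 382 CPM in IRP replicates 1 to 4, against 43.2, 35.7, 43.5 and 31.2 CPM in NP replicates 1 to 4. The change was 3.14 ± 0.34 (SE; adjusted p = 1.1e-05, edgeR), with 2.98 ± 0.26 in the shallow vehicle comparison. Col3a1, the collagen of reticular fibres, had 559.8 ± 227 CPM in IRP and 98.97 ± 36.8 CPM in NP (SD, n = 4 each), and the basement membrane chain Col4a1 685 ± 193 CPM in IRP and 239 ± 45.7 CPM in NP; both rose, by 2.51 ± 0.37 and 1.51 ± 0.19. The small proteoglycans Bgn and Dcn, which decorate collagen, rose by 2.32 ± 0.23 and 1.88 ± 0.19.

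Enzymes that cut matrix rose with the matrix itself. Mmp14, a membrane-bound collagenase that activates the gelatinase Mmp2, had 119, 44.4, 91.6 and 79.8 CPM in IRP replicates 1 to 4, against 12.5, 5.21, 6.52 and 6.25 CPM in NP replicates 1 to 4. Mmp2 had 59.9, 20.8, 44.9 and 51.1 CPM in IRP replicates 1 to 4, against 2.88, 2.23, 5.44 and 5.47 CPM in NP replicates 1 to 4. Neither gene overlapped between groups, and the changes were 3.49 ± 0.35 and 3.48 ± 0.40. Their inhibitor Timp2 rose by 2.23 ± 0.23 (SE; adjusted p = 7.5e-06, edgeR). Timp3, another inhibitor that is bound to matrix, was the single member called lower, with 1363, 1784, 1457 and 1352 CPM in IRP replicates 1 to 4, against 2315, 2193, 1678 and 2154 CPM in NP replicates 1 to 4. IRP replicate 2 lay above NP replicate 3, the change was -0.49 ± 0.14 (SE; adjusted p = 0.012, edgeR), and with counts scaled by library totals alone it was 0.08. Ltbp2, a microfibril protein, rose by 4.05 ± 0.57 (SE; adjusted p = 8.8e-05, edgeR). The list had 31 higher and none lower in the shallow vehicle comparison (median 2.04) and, in the set-adjusted fit, 27 higher and none lower.

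Cytoskeletal genes followed, with 23 higher and none lower of 28 and a median of 0.90. Vim, the intermediate filament protein of mesenchymal and injured epithelial cells, had 167, 88.05, 129 and 144 CPM in IRP replicates 1 to 4, against 35.6, 23.8, 29.4 and 40.6 CPM in NP replicates 1 to 4. Tmsb4x, which binds free actin, had 248 ± 78.9 CPM in IRP and 52.3 ± 11.2 CPM in NP (SD, n = 4 each). No library of either gene overlapped with the other group, and the changes were 2.03 ± 0.21 (SE; adjusted p = 7.7e-06, edgeR) and 2.24 ± 0.23 (SE; adjusted p = 7.7e-06, edgeR). Of the list, 9 higher and none lower passed in the set-adjusted fit. Annexin and S100 genes had 7 higher and none lower of 11.

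Macrophage and monocyte genes rose without exception at this level, with 13 higher and none lower of 13 and the highest median of any list of 10 or more such members, 2.52. Lyz2, the lysozyme of phagocytes, had 419.6, 162, 294 and 312 CPM in IRP replicates 1 to 4, against 12.5, 8.18, 26.1 and 15.6 CPM in NP replicates 1 to 4. Ctss, a lysosomal protease of antigen-presenting cells, had 188, 68.7, 138 and 127 CPM in IRP replicates 1 to 4, against 5.77, 5.21, 7.61 and 7.81 CPM in NP replicates 1 to 4. Mpeg1, a pore-forming protein of macrophages, had 246, 75.7, 157 and 151 CPM in IRP replicates 1 to 4, against 11.5, 5.21, 14.1 and 11.7 CPM in NP replicates 1 to 4. In all 3 genes the lowest IRP library was more than 5 times the highest NP library, and the changes were 4.30 ± 0.43, 4.31 ± 0.36 and 3.93 ± 0.38. Apoe, a lipid carrier that macrophages secrete, had 713 ± 259 CPM in IRP and 135 ± 12.1 CPM in NP (SD, n = 4 each) and rose by 2.40 ± 0.24 (SE; adjusted p = 6.8e-06, edgeR). In bulk tissue, more cells of a type and more RNA per cell cannot be told apart. The shallow vehicle comparison called 13 higher and none lower of the list, with a median of 2.80, and the set-adjusted fit 10 higher and none lower.

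All 3 lymphocyte genes of at least 20 CPM rose. Igkc, the constant part of the kappa light chain made by B and plasma cells, had 206, 68.3, 309 and 156 CPM in IRP replicates 1 to 4, against 2.88, 7.44, 2.17 and 3.12 CPM in NP replicates 1 to 4. Ighm, the heavy chain of IgM, had 83.9, 33.5, 142 and 99.00 CPM in IRP replicates 1 to 4, against 4.80, 3.72, 6.52 and 2.34 CPM in NP replicates 1 to 4. IRP replicate 3 was the highest library for both, and the changes were 5.48 ± 0.63 (SE; adjusted p = 1.8e-05, edgeR) and 4.42 ± 0.83 (SE; adjusted p = 0.00061, edgeR). Within IRV, Ighm differed by more than 2-fold between the library sets and was higher in the shallow one, where replicate 2 had 317 CPM and replicate 1 60.6 CPM. Ptprc, which encodes the leukocyte surface protein CD45, rose by 1.32 ± 0.20 (SE; adjusted p = 0.00016, edgeR). Below 20 CPM, the B cell surface marker Ms4a1 was called lower, with 1.76 ± 0.91 CPM in IRP and 9.95 ± 1.28 CPM in NP (SD, n = 4 each) and a change of -2.49 ± 0.73, but had 0.22 ± 0.36 in the shallow vehicle comparison. The T cell gene Cd3e had 1.01 ± 0.56 and did not pass (adjusted p = 0.16, edgeR). Also below 20 CPM, Cd4, Jchain and Il2rb were called higher, with changes of 3.34 ± 0.57, 2.99 ± 0.58 and 2.79 ± 0.78. Of these genes only Jchain passed in the set-adjusted fit (adjusted p = 0.025, edgeR). Over the whole lymphocyte list, 6 genes were higher and 1 lower. Of the neutrophil list, 3 members were tested, all below 20 CPM: Csf3r was higher (2.09 ± 0.68), and Cxcr2 (-3.26 ± 0.86) and Ltf (-3.63 ± 0.72) were lower. These 3 had log2 changes of 0.92, -0.50 and 0.05 in the shallow vehicle comparison.

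Chemokine and cytokine genes of at least 20 CPM had 7 higher and none lower of 7, among them the matricellular growth factor genes Ccn1 and Ccn2. Over all 19 members tested, 16 were higher and 1, the chemokine gene Ccl28, was lower (-1.13 ± 0.34), with 0.88 ± 0.33 in the shallow vehicle comparison. Csf1, the growth factor of macrophages, had 50.02, 22.6, 32.7 and 35.9 CPM in IRP replicates 1 to 4, against 7.69, 8.18, 10.9 and 5.47 CPM in NP replicates 1 to 4. Cxcl16, a membrane-bound chemokine, had 116, 58.2, 93.5 and 84.8 CPM in IRP replicates 1 to 4, against 22.1, 38.7, 31.5 and 33.6 CPM in NP replicates 1 to 4. Cxcl14 had 65.2, 26.6, 50.4 and 49.3 CPM in IRP replicates 1 to 4, against 3.84, 9.67, 9.79 and 6.25 CPM in NP replicates 1 to 4. None of the 3 overlapped between groups, and the changes were 2.16 ± 0.30, 1.47 ± 0.21 and 2.69 ± 0.36. Of these, only Cxcl14 passed in the set-adjusted fit (adjusted p = 0.03, edgeR, against 0.068 and 0.054), while all 3 passed in the shallow vehicle comparison.

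Antigen presentation genes of at least 20 CPM had 15 higher and none lower of 15 and a median of 1.62. Its largest rises were genes of MHC class II, the surface molecules that show peptides to CD4 T cells. H2-Aa, the alpha chain of I-A, had 248, 99.3, 181 and 195 CPM in IRP replicates 1 to 4, against 18.3, 14.9, 16.3 and 19.5 CPM in NP replicates 1 to 4. H2-Ab1, its beta chain, had 369, 141, 285 and 282 CPM in IRP replicates 1 to 4, against 21.1, 28.3, 22.8 and 22.6 CPM in NP replicates 1 to 4. H2-Eb1, the beta chain of I-E, had 338, 134, 242 and 224 CPM in IRP replicates 1 to 4, against 27.9, 16.4, 20.7 and 28.1 CPM in NP replicates 1 to 4. Each IRP library was at least 4 times the highest NP library in all 3 genes, and the changes were 3.39 ± 0.27, 3.49 ± 0.30 and 3.34 ± 0.32. Cd74, the chaperone that guards their groove, was the most abundant, with 972, 351, 739 and 767 CPM in IRP replicates 1 to 4, against 70.1, 61.00, 58.7 and 65.6 CPM in NP replicates 1 to 4, and rose by 3.47 ± 0.30 (SE; adjusted p = 3e-06, edgeR). The shallow vehicle comparison had 12 higher and none lower of the list (median 1.34), and the set-adjusted fit 8 higher and none lower, the 4 class II genes among them.

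Class II promoters are textbook examples of promoters with a Y box, an inverted CCAAT sequence that the factor NF-Y binds. The promoters of H2-Aa and H2-Eb1 are shown because these genes rose together, and those of Insig1 and Msmo1, sterol genes described below, because they fell together and sterol promoters are likewise known for NF-Y sites beside those of SREBP. Each runs from 250 bases before to 50 bases after the gene's start, from RefSeq in build GRCm38.p6, 5′ to 3′ on the gene's strand. Capitals mark CCAAT boxes, found as CCAAT or, from the other strand, as ATTGG.
H2-Aa, chr17:34287774-34288073, minus strand: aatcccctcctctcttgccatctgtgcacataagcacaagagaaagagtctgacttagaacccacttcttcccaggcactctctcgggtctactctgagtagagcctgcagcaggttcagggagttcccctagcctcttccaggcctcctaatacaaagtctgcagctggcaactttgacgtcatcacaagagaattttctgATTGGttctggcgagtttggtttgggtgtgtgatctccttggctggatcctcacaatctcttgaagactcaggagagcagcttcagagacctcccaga
H2-Eb1, chr17:34305617-34305916, plus strand: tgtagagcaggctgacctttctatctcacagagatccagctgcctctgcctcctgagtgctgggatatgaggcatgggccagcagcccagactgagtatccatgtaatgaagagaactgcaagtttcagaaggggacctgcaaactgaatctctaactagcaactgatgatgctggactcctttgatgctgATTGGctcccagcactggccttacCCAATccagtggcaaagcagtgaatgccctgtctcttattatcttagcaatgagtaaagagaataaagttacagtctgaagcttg
Insig1, chr5:28071162-28071461, plus strand: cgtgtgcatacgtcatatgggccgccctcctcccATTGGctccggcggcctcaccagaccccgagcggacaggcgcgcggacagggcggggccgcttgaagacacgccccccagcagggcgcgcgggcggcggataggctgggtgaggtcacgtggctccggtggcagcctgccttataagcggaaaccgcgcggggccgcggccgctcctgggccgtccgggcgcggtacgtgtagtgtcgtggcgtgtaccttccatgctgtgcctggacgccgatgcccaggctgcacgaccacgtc
Msmo1, chr8:64733529-64733828, minus strand: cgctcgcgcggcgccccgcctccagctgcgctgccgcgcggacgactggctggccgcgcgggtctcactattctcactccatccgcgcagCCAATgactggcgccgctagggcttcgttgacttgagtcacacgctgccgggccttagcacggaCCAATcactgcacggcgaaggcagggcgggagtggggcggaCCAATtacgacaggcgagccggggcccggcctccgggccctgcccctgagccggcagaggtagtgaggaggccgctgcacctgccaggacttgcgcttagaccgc
The box occurred once in the promoters of H2-Aa and Insig1, at 2 places in that of H2-Eb1 and at 3 in that of Msmo1. It was present in 37.4% of all 32851 promoters of this length and in at least 1 promoter of 41.1% of 27025 genes. Of 6 class II genes looked up, 4 were in the table, and all 4 held it. Of the 27 genes of the sterol list, 18 were in the table, and 16 of them held it. The sterol element in the form TCACNCCAC, on either strand, occurred in 1.24% of all promoters and in 1 of those 18 genes. These are matches of letters and not measured binding.

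Interferon response genes had 13 higher and none lower of 15, with a median of 1.25. Zc3hav1, an antiviral RNA-binding member of the PARP family, had 74.3, 45.7, 63.1 and 67.9 CPM in IRP replicates 1 to 4, against 17.3, 24.5, 26.1 and 17.2 CPM in NP replicates 1 to 4. Oasl2 and Irf1, both induced by interferon, had 36.4 ± 12.3 CPM in IRP and 9.55 ± 3.26 CPM in NP and 29.9 ± 6.55 CPM in IRP and 10.3 ± 3.70 CPM in NP (SD, n = 4 each). All 3 rose without overlap, by 1.57 ± 0.19, 1.98 ± 0.33 and 1.56 ± 0.26. The list had 10 higher and none lower in the shallow vehicle comparison and 2 higher and none lower in the set-adjusted fit.

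Complement genes had 12 higher and 1 lower of 16, with a median of 2.15. Serping1, which inhibits the C1 proteases, had 293, 126, 233 and 222 CPM in IRP replicates 1 to 4, against 33.6, 38.7, 32.6 and 29.7 CPM in NP replicates 1 to 4. C1s1, one of those proteases, had 103 ± 28.2 CPM in IRP and 21.9 ± 4.43 CPM in NP (SD, n = 4 each). Both rose, with changes of 2.70 ± 0.26 and 2.26 ± 0.23. Cfb, the protease component that drives the alternative pathway, was the single member called lower, with 189.8, 249, 212 and 206 CPM in IRP replicates 1 to 4, against 247, 307, 314 and 281 CPM in NP replicates 1 to 4. IRP replicate 2 lay just above NP replicate 1, the change was -0.42 ± 0.15 (SE; adjusted p = 0.026, edgeR), and with counts scaled by library totals alone it was 0.15. Cfb did not pass without IRP replicate 1 (-0.35) or without NP replicate 2 (-0.38). It was -0.55 ± 0.18 in the shallow vehicle comparison (adjusted p = 0.063, edgeR) and passed in the set-adjusted fit at -0.85 ± 0.22 (adjusted p = 0.041, edgeR). The complement list had 12 higher and none lower in the shallow vehicle comparison and 9 higher and 1 lower in the set-adjusted fit.

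Proximal tubule genes were lower. Of 50 transporter genes, 1 was higher and 34 lower, with a median of -0.66, and of 46 enzyme genes, none were higher and 33 lower, with a median of -0.74. The transporters summed to 9846 to 17968 CPM in the IRP libraries, against 18651 to 24079 CPM in the NP libraries. Slc34a1, which takes phosphate back from the filtrate, had 1223, 2329.7, 1674 and 1558 CPM in IRP replicates 1 to 4, against 3012, 3617, 2833 and 3253 CPM in NP replicates 1 to 4. IRP replicate 2 was the highest IRP library and still below every NP library, and the change was -0.91 ± 0.18 (SE; adjusted p = 0.001, edgeR). Lrp2, the endocytic receptor megalin, had 1266, 2655, 1614 and 1836 CPM in IRP replicates 1 to 4, against 3040.4, 3981, 3526 and 3689 CPM in NP replicates 1 to 4. Slc13a3, a dicarboxylate carrier of the basolateral side, had 240.1, 339, 278 and 271 CPM in IRP replicates 1 to 4, against 511, 754, 571 and 572 CPM in NP replicates 1 to 4. Neither overlapped, and the changes were -0.95 ± 0.20 (SE; adjusted p = 0.0012, edgeR) and -1.10 ± 0.15 (SE; adjusted p = 5.6e-05, edgeR). The imino acid carrier gene Slc6a20b and the monocarboxylate carrier family gene Slc16a9 changed by -0.94 ± 0.17 and -1.12 ± 0.21. Slc13a1, the apical sulfate carrier, was the single transporter called higher, with 221, 178, 184 and 335 CPM in IRP replicates 1 to 4, against 140.3, 175, 175 and 159 CPM in NP replicates 1 to 4. IRP replicate 2 was only slightly above the highest NP library, the change was 0.50 ± 0.18 (SE; adjusted p = 0.029, edgeR), and in the shallow vehicle comparison it was -0.03 ± 0.16 (adjusted p = 0.94, edgeR). The call was lost without IRP replicate 4 (0.19) and without NP replicate 1 (0.36), 3 (0.46) or 4 (0.42).

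Among the enzymes Gldc, a subunit of the glycine cleavage system, had 21.9, 30.98, 30.8 and 42.2 CPM in IRP replicates 1 to 4, against 149, 141, 81.6 and 121 CPM in NP replicates 1 to 4. The groups were far apart, and the change was -1.98 ± 0.22 (SE; adjusted p = 1.2e-05, edgeR). Miox, which starts the breakdown of inositol, had 244, 552, 385 and 368 CPM in IRP replicates 1 to 4, against 803, 862, 749 and 891 CPM in NP replicates 1 to 4. Fut9, a fucosyltransferase, had 346 ± 99.04 CPM in IRP and 709.5 ± 58.7 CPM in NP (SD, n = 4 each). Both fell without overlap, with changes of -1.09 ± 0.20 and -1.04 ± 0.16. The mono-oxygenase gene Fmo1 had 222, 327, 221 and 194 CPM in IRP replicates 1 to 4, against 606, 704, 589 and 614 CPM in NP replicates 1 to 4, with a change of -1.38 ± 0.17 (SE; adjusted p = 2.6e-05, edgeR). Cyp4a14, a fatty acid hydroxylase of a family with similar copies, had 44.6, 12.9, 22.3 and 71.7 CPM in IRP replicates 1 to 4, against 98.98, 211, 194 and 214 CPM in NP replicates 1 to 4, and its change of -2.24 ± 0.44 (SE; adjusted p = 0.00085, edgeR) carried a wide spread among both groups. For the same transporters and enzymes the shallow vehicle comparison had none higher and 40 lower and none higher and 40 lower, with medians of -0.85 and -1.005. The set-adjusted fit had none higher and 4 lower and none higher and 8 lower, with medians of -0.81 and -0.91. With counts scaled by library totals alone the medians were -0.09 and -0.18, which is -0.67 and -0.75 relative to all genes.

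Genes of glucose production, a task the proximal tubule shares with liver, were mostly lower. None were higher and 9 lower of 12, with a median of -0.72. Pck1, the first committed enzyme, had 409, 492, 441 and 210.3 CPM in IRP replicates 1 to 4, against 1465, 2120.0, 1003 and 933 CPM in NP replicates 1 to 4. The highest IRP library was well below the lowest NP library, and the change was -1.83 ± 0.30 (SE; adjusted p = 0.00025, edgeR). G6pc, which releases free glucose, had 52.6, 104, 62.6 and 73.3 CPM in IRP replicates 1 to 4, against 133, 229.9, 192 and 210.1 CPM in NP replicates 1 to 4. Fbp1 had 192, 391, 276 and 236 CPM in IRP replicates 1 to 4, against 484, 603, 552 and 527 CPM in NP replicates 1 to 4. Both fell without overlap, with changes of -1.39 ± 0.25 and -0.99 ± 0.19. Glycolysis genes had 2 higher and 4 lower of 18 and a median of -0.08. These are 11.1% and 22.2%, beside 23.7% and 19.8% over all genes of at least 20 CPM. Pfkfb3, which makes the activator of the rate-setting step, had 46.6, 26.99, 37.4 and 34.8 CPM in IRP replicates 1 to 4, against 20.2, 13.4, 7.61 and 18.7 CPM in NP replicates 1 to 4 and rose by 1.27 ± 0.24 (SE; adjusted p = 0.00066, edgeR), although in the shallow vehicle comparison it was 0.18 ± 0.26 and did not pass. Pgk1 and Gapdh fell, with changes of -0.64 ± 0.13 and -0.56 ± 0.13; with counts scaled by library totals alone Gapdh was at 0.0029.

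Mitochondrial energy genes were lower as groups. The nuclear genes of the respiratory chain had none higher and 65 lower of 70, and the citric acid cycle had none higher and 22 lower of 26. Their medians were small, -0.57 and -0.50, and sat close to the shift that scaling can make: with counts scaled by library totals alone they were -0.01 and 0.06, with 0 and 1 members called higher and 0 and 0 lower. Relative to the median of all genes under that scaling they stayed at -0.58 and -0.51. Ndufs8, an iron-sulfur subunit of complex I, had 30.2, 45.8, 35.4 and 38.8 CPM in IRP replicates 1 to 4, against 71.1, 67.7, 67.4 and 71.8 CPM in NP replicates 1 to 4. Cox7c, a subunit of cytochrome oxidase, had 33.3, 46.02, 41.9 and 38.6 CPM in IRP replicates 1 to 4, against 64.4, 75.1, 71.8 and 70.3 CPM in NP replicates 1 to 4. Mdh2, the malate dehydrogenase of the cycle, had 103, 142, 119 and 117 CPM in IRP replicates 1 to 4, against 191, 248, 187 and 189 CPM in NP replicates 1 to 4. In none of the 3 did the groups overlap, and the changes were -0.89 ± 0.14 (SE; adjusted p = 0.00023, edgeR), -0.82 ± 0.16 (SE; adjusted p = 0.00063, edgeR) and -0.76 ± 0.12 (SE; adjusted p = 0.00018, edgeR). The shallow vehicle comparison had none higher and 54 lower among the respiratory chain genes and none higher and 23 lower among the cycle genes, with medians of -0.82 and -0.82. The set-adjusted fit had none higher and 2 lower and none higher and 2 lower.

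The 13 protein-coding genes of mitochondrial DNA had none higher and 11 lower, with a median of -0.84. mt-Co1, a core subunit of cytochrome oxidase, had 21114, 46008, 32115 and 28804 CPM in IRP replicates 1 to 4, against 50724, 52344, 54135 and 46374 CPM in NP replicates 1 to 4. mt-Nd1, a membrane subunit of complex I, had 10077, 21361, 14054 and 14569 CPM in IRP replicates 1 to 4, against 27544, 24554, 24943 and 22293 CPM in NP replicates 1 to 4. IRP replicate 2 came close to the NP libraries and IRP replicate 1 was far below them, while the changes were -0.67 ± 0.23 (SE; adjusted p = 0.028, edgeR) and -0.73 ± 0.22 (SE; adjusted p = 0.014, edgeR). The call of mt-Co1 was lost without any 1 of IRP replicates 1, 3 and 4 (-0.50, -0.73 and -0.68) or NP replicates 2 and 3 (-0.64 and -0.70). Together these genes took 12.98, 25.1, 19.1 and 17.5% of all counts in IRP replicates 1 to 4, against 23.2, 20.96, 21.7 and 19.3% in NP replicates 1 to 4. The spread inside IRP was thus wider than the distance between the groups on the scale of raw shares. None of the 13 passed in the set-adjusted fit, where the median was -0.52.

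Fatty acid oxidation and peroxisome genes had none higher and 26 lower of 48, with a median of -0.44 that was 0.14 with counts scaled by library totals alone (-0.44 relative to all genes). Echs1, the hydratase of the mitochondrial spiral, had 56.7, 77.9, 55.7 and 58.4 CPM in IRP replicates 1 to 4, against 105, 150.3, 151 and 114 CPM in NP replicates 1 to 4. Phyh, which starts peroxisomal alpha-oxidation, had 129, 236, 185 and 175 CPM in IRP replicates 1 to 4, against 303, 353, 295 and 304 CPM in NP replicates 1 to 4. Both fell without overlap, with changes of -1.07 ± 0.16 (SE; adjusted p = 0.00014, edgeR) and -0.79 ± 0.15 (SE; adjusted p = 0.00067, edgeR). Antioxidant genes had 2 higher and 11 lower of 31 (6.45% and 35.5%, beside 23.7% and 19.8% over all genes of at least 20 CPM). Their median of -0.32 was 0.25 under that scaling (-0.32 relative to all genes). Gpx3, the glutathione peroxidase that kidney secretes into plasma, was the most abundant of them, with 5223, 10852, 7903 and 7639 CPM in IRP replicates 1 to 4, against 22051, 20004, 18399.9 and 18009 CPM in NP replicates 1 to 4. The highest IRP library was well below the lowest NP library, and the change was -1.31 ± 0.22 (SE; adjusted p = 0.00031, edgeR). Gsta2 and Mgst3, glutathione transferases, fell, with changes of -1.02 ± 0.16 and -0.86 ± 0.11. Nfe2l2, which encodes the master regulator NRF2 itself, was one of the rises, with 109, 94.6, 112 and 99.8 CPM in IRP replicates 1 to 4, against 71.1, 50.6, 54.4 and 60.1 CPM in NP replicates 1 to 4 and a change of 0.82 ± 0.16 (SE; adjusted p = 0.00081, edgeR); in the shallow vehicle comparison it was 0.38 ± 0.20 and did not pass.

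The iron list had 3 higher and 5 lower of 16 (18.8% and 31.2%, beside 23.7% and 19.8% over all genes of that level). Tfrc, the receptor that takes up transferrin, had 32.1, 38.4, 33.5 and 39.8 CPM in IRP replicates 1 to 4, against 112, 146, 80.5 and 86.7 CPM in NP replicates 1 to 4 and fell, with a change of -1.57 ± 0.21 (SE; adjusted p = 5.4e-05, edgeR). Trf, transferrin itself, had 127, 43.5, 72.4 and 71.4 CPM in IRP replicates 1 to 4, against 33.6, 25.3, 22.8 and 19.5 CPM in NP replicates 1 to 4 and rose by 1.64 ± 0.31 (SE; adjusted p = 0.00062, edgeR). Both directions also passed in the shallow vehicle comparison, at -0.79 ± 0.20 and 1.80 ± 0.28. Neither passed in the set-adjusted fit (adjusted p = 0.12 and 0.18, edgeR).

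Cholesterol synthesis and uptake genes fell to similar levels in all 4 IRP libraries. Of 21 members, 2 were higher and 17 lower, with a median of -0.87, the lowest of any list of 5 or more such members. Cells regulate this pathway through SREBP factors, which Insig1 holds back in the endoplasmic reticulum when sterols are plentiful and which in turn raise the synthesis genes and Insig1 itself. Insig1 had 22.4, 21.6, 19.7 and 18.8 CPM in IRP replicates 1 to 4, against 44.2, 71.4, 61.98 and 73.4 CPM in NP replicates 1 to 4. The 4 IRP libraries lay between 18.8 and 22.4 CPM and the NP libraries at 44.2 CPM or more, and the change was -1.61 ± 0.16 (SE; adjusted p = 7.4e-06, edgeR). Msmo1, a demethylating oxidase late in the pathway, had 14.9, 13.6, 12.04 and 15.8 CPM in IRP replicates 1 to 4, against 34.6, 48.4, 36.97 and 46.1 CPM in NP replicates 1 to 4. Sqle, the epoxidase of squalene, had 39.8, 37.7, 30.3 and 29.7 CPM in IRP replicates 1 to 4, against 53.8, 84.8, 88.1 and 80.4 CPM in NP replicates 1 to 4. None of these overlapped, and the changes were -1.57 ± 0.18 and -1.16 ± 0.15. The 2 members that rose serve the way out of the cell: Abca1, the exporter that loads cholesterol onto HDL, had 153, 78.3, 105 and 99.6 CPM in IRP replicates 1 to 4, against 19.2, 36.4, 27.2 and 34.4 CPM in NP replicates 1 to 4 with a change of 1.88 ± 0.24 (SE; adjusted p = 4.6e-05, edgeR), and Apoe is given above. In the shallow vehicle comparison the list had 2 higher and 9 lower, with a median of -0.62; Msmo1 was -0.65 ± 0.24 and did not pass (adjusted p = 0.087, edgeR). Insig1 was smaller there than in IRP against NP, at -0.62 ± 0.20, and passed only narrowly (adjusted p = 0.04999, edgeR). In the set-adjusted fit the list had 2 higher and 5 lower, Insig1 and Sqle among the falls.

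**Figure D3:**
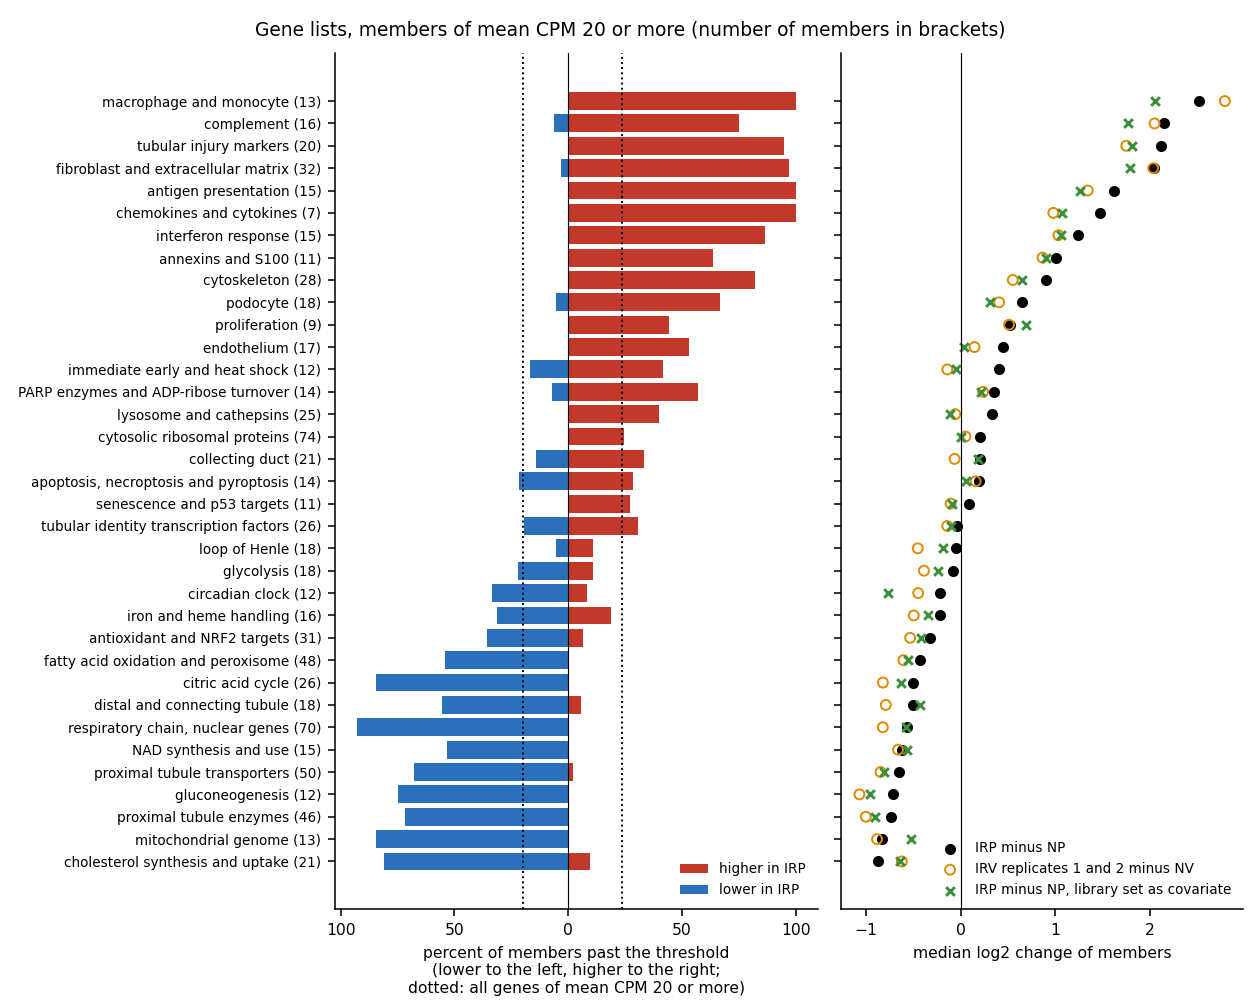
Left, percent of members of mean CPM 20 or more called lower (blue, to the left) or higher (red, to the right) in IRP than in NP, for 35 lists with their number of such members; dotted lines give 19.8% and 23.7% for all genes of that level. Right, the median log2 change in 3 comparisons: macrophage genes lie near 2.5 and sterol genes near -0.9, and most lists keep their side of 0 in the shallow vehicle comparison.

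Loop of Henle genes had 2 higher and 1 lower of 18 and a median of -0.05. These are 11.1% and 5.56%, beside 23.7% and 19.8% over all genes of at least 20 CPM. Umod, the most abundant protein of normal urine, had 1133, 1751, 1753 and 1512 CPM in IRP replicates 1 to 4, against 1036, 1628, 1309 and 1593 CPM in NP replicates 1 to 4. The groups overlapped throughout, and the difference of 0.14 ± 0.17 did not pass (adjusted p = 0.52, edgeR). Egf, made by the same segment and the distal tubule, had 114, 951, 559 and 517 CPM in IRP replicates 1 to 4, against 1071, 1389.5, 1175 and 1346 CPM in NP replicates 1 to 4. IRP replicate 1 was far below the other IRP libraries, all IRP libraries were below all NP libraries, and the change was -1.22 ± 0.38 (SE; adjusted p = 0.015, edgeR). Cldn19, a tight junction protein that sets magnesium and calcium passage, had 38.1, 39.9, 45.1 and 36.7 CPM in IRP replicates 1 to 4, against 4.80, 16.4, 27.2 and 16.4 CPM in NP replicates 1 to 4 and rose by 1.32 ± 0.27 (SE; adjusted p = 0.0011, edgeR).

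Distal and connecting tubule genes had 1 higher and 10 lower of 18, with a median of -0.51 that was 0.04 with counts scaled by library totals alone (-0.53 relative to all genes). Kcnj10, a basolateral potassium channel, had 21.4, 69.2, 54.3 and 53.8 CPM in IRP replicates 1 to 4, against 86.5, 84.8, 95.7 and 89.03 CPM in NP replicates 1 to 4 and fell, with a change of -0.85 ± 0.24 (SE; adjusted p = 0.0097, edgeR). Atp2b1, a calcium pump of the plasma membrane, was the single rise, at 0.47 ± 0.11 (SE; adjusted p = 0.003, edgeR). In the shallow vehicle comparison the list had none higher and 11 lower, with a median of -0.79, and in the set-adjusted fit none in either direction.

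In the collecting duct list 7 higher and 3 lower of 21 members passed, with a median of 0.20. These are 33.3% and 14.3%, beside 23.7% and 19.8% over all genes of that level. Aqp2, the water channel that vasopressin controls, had 4.95, 26.5, 34.9 and 23.6 CPM in IRP replicates 1 to 4, against 19.2, 46.1, 31.5 and 30.5 CPM in NP replicates 1 to 4. IRP replicate 1 was the lowest of all, the groups overlapped, and the difference of -0.53 ± 0.41 did not pass (adjusted p = 0.32, edgeR). Aqp4, a water channel of the opposite cell side, had 2.05, 8.15, 4.55 and 3.03 CPM in IRP replicates 1 to 4, against 19.2, 58.8, 55.5 and 39.8 CPM in NP replicates 1 to 4. Every IRP library was below every NP library, and the change was -3.32 ± 0.41 (SE; adjusted p = 3e-05, edgeR). Aqp4 also differed by more than 2-fold between the IRV sets, and it had -2.67 ± 0.38 in the shallow vehicle comparison, where it passed. Car2, carbonic anhydrase of acid-base cells, fell, with a change of -0.67 ± 0.14. The receptor kinase gene Kit had 37.9, 32.4, 48.6 and 52.4 CPM in IRP replicates 1 to 4, against 15.4, 14.1, 14.1 and 14.1 CPM in NP replicates 1 to 4, and the sialyltransferase gene St6gal1 61.6, 32.6, 48.02 and 52.4 CPM in IRP replicates 1 to 4, against 16.3, 16.4, 9.79 and 13.3 CPM in NP replicates 1 to 4. Both were far apart between groups, and the changes were 1.57 ± 0.18 (SE; adjusted p = 1.6e-05, edgeR) and 1.79 ± 0.24 (SE; adjusted p = 6e-05, edgeR).

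Podocyte genes were mostly higher, with 12 higher and 1 lower of 18 and a median of 0.64. Synpo, which organises actin in podocyte foot processes, had 136, 110.2, 127 and 128 CPM in IRP replicates 1 to 4, against 59.6, 55.05, 59.8 and 71.8 CPM in NP replicates 1 to 4. Nes, an intermediate filament gene that podocytes keep into adulthood, had 158, 105, 132 and 124 CPM in IRP replicates 1 to 4, against 56.7, 43.1, 38.1 and 48.4 CPM in NP replicates 1 to 4. No IRP library reached down to the NP range in either gene, and the changes were 1.02 ± 0.13 (SE; adjusted p = 4.3e-05, edgeR) and 1.48 ± 0.18 (SE; adjusted p = 2.7e-05, edgeR). Vegfa, the endothelial growth factor that podocytes and tubules make, was the exception, with 87.2, 123, 105 and 111 CPM in IRP replicates 1 to 4, against 139, 148, 109 and 152 CPM in NP replicates 1 to 4. The groups overlapped, the change was -0.37 ± 0.13 (SE; adjusted p = 0.033, edgeR), and with counts scaled by library totals alone it was 0.20. Without IRP replicate 1 Vegfa was at -0.26, and without NP replicates 2 or 4 at -0.31 and -0.38, none of them past the threshold. The list had 4 higher and none lower in the shallow vehicle comparison and 2 higher and none lower in the set-adjusted fit.

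Endothelial genes had 9 higher and none lower of 17, with a median of 0.45. Pecam1, the junction protein CD31, had 62.7, 60.5, 67.99 and 64.3 CPM in IRP replicates 1 to 4, against 36.5, 35.7, 34.8 and 43.7 CPM in NP replicates 1 to 4. Efnb2, an ephrin of arterial endothelium, and the factor gene Ets1 had 42.5 ± 9.68 CPM in IRP and 14.4 ± 6.02 CPM in NP and 63.2 ± 8.64 CPM in IRP and 29.6 ± 5.40 CPM in NP (SD, n = 4 each). The changes were 0.76 ± 0.15, 1.52 ± 0.25 and 1.09 ± 0.18. The median was 0.15 in the shallow vehicle comparison and 0.04 in the set-adjusted fit, where none of the list passed.

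Cell cycle genes had 4 higher and none lower of 9 (44.4% higher, beside 23.7% over all genes of that level). Mki67, a protein of dividing cells, had 75.2, 25.7, 57.7 and 58.3 CPM in IRP replicates 1 to 4, against 24.98, 11.9, 25.01 and 14.1 CPM in NP replicates 1 to 4. NP replicates 1 and 3 reached the lowest IRP library within 1 CPM, and the change was 1.56 ± 0.29 (SE; adjusted p = 0.00056, edgeR). Ccnd2, a G1 cyclin, rose by 1.31 ± 0.21 (SE; adjusted p = 0.00024, edgeR). Of the 4 rises only Mki67 passed in the shallow vehicle comparison (1.53 ± 0.20) and in the set-adjusted fit (1.72 ± 0.45, adjusted p = 0.04, edgeR). Ccnd2 passed in neither (adjusted p = 0.077 and 0.115, edgeR). In the list of senescence and p53 targets 3 higher and none lower of 11 passed (27.3% higher, near the 23.7%), with a median of 0.08 close to that of all genes. Cdkn1a, the cell cycle brake p21 that p53 induces, averaged below 20 CPM and had 21.99, 8.70, 12.3 and 18.2 CPM in IRP replicates 1 to 4, against 3.84, 3.72, 1.09 and 0.781 CPM in NP replicates 1 to 4. The groups did not overlap, and the change was 2.67 ± 0.44 (SE; adjusted p = 0.00026, edgeR). Cdkn1b, which encodes the related inhibitor p27, and Igfbp7, a secreted binding protein, rose by 0.84 ± 0.15 and 0.63 ± 0.14. Cdkn1a passed at 2.04 ± 0.40 in the shallow vehicle comparison, while Cdkn1b (0.47 ± 0.22) and Igfbp7 (0.12 ± 0.17) did not.

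Of 14 cell death genes 4 higher and 3 lower passed (28.6% and 21.4%), shares near those over all genes of that level (23.7% and 19.8%). Immediate early and stress-chaperone genes came to 5 higher and 2 lower of 12 (41.7% and 16.7%). In the set-adjusted fit these counts became none in either direction and 1 higher and 3 lower. Lysosome and cathepsin genes had 10 higher and none lower of 25 (40% higher), and their median of 0.33 was -0.06 in the shallow vehicle comparison. The circadian list had 1 higher and 4 lower of 12 (8.33% and 33.3%). Nr1d1, a repressor of the clock loop, had 73.8, 100.4, 96.2 and 62.1 CPM in IRP replicates 1 to 4, against 29.8, 33.5, 40.2 and 36.7 CPM in NP replicates 1 to 4. It rose by 1.25 ± 0.23 (SE; adjusted p = 0.0005, edgeR) but had 0.22 ± 0.22 in the shallow vehicle comparison, where it did not pass. Rora, which activates the same sites, fell, with a change of -0.51 ± 0.11 (SE; adjusted p = 0.0012, edgeR), and was 0.07 with counts scaled by library totals alone.

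Parp1 and Parp2, the enzymes that inhibitors of this kind are aimed at, did not pass the test. Parp1, the main sensor of DNA breaks and the source of most poly(ADP-ribose), had 55.2, 46.7, 51.5 and 49.3 CPM in IRP replicates 1 to 4, against 37.5, 46.9, 46.8 and 33.6 CPM in NP replicates 1 to 4. The groups overlapped and the difference of 0.30 ± 0.13 did not pass (adjusted p = 0.059, edgeR), although without NP replicate 2 it was 0.39 and did (adjusted p = 0.032, edgeR). Parp2, its close relative, averaged below 20 CPM and had 14.6, 8.70, 13.5 and 16.3 CPM in IRP replicates 1 to 4, against 16.3, 5.95, 11.96 and 11.7 CPM in NP replicates 1 to 4, a difference of 0.24 ± 0.31 that did not pass either (adjusted p = 0.57, edgeR). Of 14 genes of the PARP and ADP-ribose list 8 higher and 1 lower passed, with a median of 0.35. These are 57.1% and 7.14%, beside 23.7% and 19.8% over all genes of that level. Of the rises, only Parp9, Zc3hav1 and Parp14 passed in the shallow vehicle comparison, and only Zc3hav1 in the set-adjusted fit. Parp14, an interferon-induced mono-ADP-ribosyl transferase, had 94.7, 45.7, 75.9 and 82.2 CPM in IRP replicates 1 to 4, against 39.4, 33.5, 39.1 and 33.6 CPM in NP replicates 1 to 4, and Parp4, a part of vault particles, had 61.7, 54.9, 55.8 and 58.1 CPM in IRP replicates 1 to 4, against 25.9, 19.3, 29.4 and 30.5 CPM in NP replicates 1 to 4. The changes were 1.05 ± 0.19 (SE; adjusted p = 0.00045, edgeR) and 1.14 ± 0.17 (SE; adjusted p = 0.00014, edgeR), with 1.08 ± 0.19 and 0.30 ± 0.21 in the shallow vehicle comparison, where only Parp14 of the pair passed. Macrod2, which removes ADP-ribose, was called lower at -0.53 ± 0.19 (SE; adjusted p = 0.032, edgeR), although IRP replicate 2 lay inside the NP range. That call was lost without IRP replicate 1 (-0.40), 3 (-0.58) or 4 (-0.50) and without NP replicate 2 (-0.52). Macrod2 was lower and passed in the shallow vehicle comparison, at -0.73 ± 0.20 (adjusted p = 0.023, edgeR).

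Genes that make or use NAD were lower, with none higher and 8 lower of 15 and a median of -0.63, which was -0.06 with counts scaled by library totals alone (-0.63 relative to all genes). Nmrk1, which turns nicotinamide riboside into an NAD precursor, had 30.8, 46.9, 33.9 and 32.1 CPM in IRP replicates 1 to 4, against 73.03, 72.2, 54.4 and 62.5 CPM in NP replicates 1 to 4. Haao, an enzyme on the path from tryptophan to NAD, had 34.6, 71.6, 51.4 and 39.4 CPM in IRP replicates 1 to 4, against 72.1, 87.8, 86.99 and 77.3 CPM in NP replicates 1 to 4. Sirt3, the main NAD-dependent deacetylase of mitochondria, had 20.1, 30.3, 21.4 and 21.1 CPM in IRP replicates 1 to 4, against 41.3, 39.4, 32.6 and 40.6 CPM in NP replicates 1 to 4. None overlapped, and the changes were -0.87 ± 0.18 (SE; adjusted p = 0.0013, edgeR), -0.72 ± 0.19 (SE; adjusted p = 0.0059, edgeR) and -0.74 ± 0.15 (SE; adjusted p = 0.00098, edgeR). Sirt5, a mitochondrial desuccinylase, showed a far larger fall, with 9.55, 12.5, 12.2 and 18.04 CPM in IRP replicates 1 to 4, against 156, 105, 174 and 148 CPM in NP replicates 1 to 4; it is one of the genes that differed between the IRV sets, and it was -0.22 ± 0.18 in the shallow vehicle comparison (adjusted p = 0.51, edgeR). In the set-adjusted fit none of the list passed.

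Of genes that mark other content of the tissue, the 3 fat and smooth muscle genes of at least 20 CPM (Fabp4, Cfd and Myh11) were all higher, and the list summed to 178 to 518 CPM in the IRP libraries, against 91.3 to 145 CPM in the NP libraries. Fabp4 and Cfd passed in the shallow vehicle comparison, at 0.94 ± 0.26 and 2.48 ± 0.32. Myh11, at 0.04 ± 0.22, did not pass there (adjusted p = 0.95, edgeR). None of the 3 passed in the set-adjusted fit (adjusted p = 0.21, 0.093 and 0.54, edgeR). Haemoglobin genes were lower: Hba-a1, whose reads are shared with a near-identical copy, had 27.8, 47.3, 25.1 and 30.02 CPM in IRP replicates 1 to 4, against 39.4, 138, 51.1 and 80.4 CPM in NP replicates 1 to 4, and Hbb-bs had 34.4, 61.2, 23.8 and 35.3 CPM in IRP replicates 1 to 4, against 46.1, 137, 58.7 and 69.5 CPM in NP replicates 1 to 4. Both overlapped between groups, the changes were -1.27 ± 0.31 (SE; adjusted p = 0.0032, edgeR) and -1.03 ± 0.32 (SE; adjusted p = 0.014, edgeR), and the shallow vehicle comparison gave -0.11 ± 0.27 and 0.01 ± 0.28. Without NP replicate 2, Hbb-bs was at -0.59 and did not pass. Of 74 cytosolic ribosomal protein genes 18 were higher and none lower (24.3% higher, near the 23.7% over all genes of that level), with Rps4x at 0.63 ± 0.12 and Rpl13a at 0.51 ± 0.12; these genes have many near copies in the genome, and the set-adjusted fit had none higher and 1 lower. The part of fat, blood or muscle content in the other results was not tested.

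The largest falls by log2 change formed a class of their own. Of the 145 largest at 20 CPM or more, 133 were unnamed gene models, pseudogenes or other kinds of gene not named here, 12 of them receptor genes. The remaining 12 were Dbhos, Cep112it, Snhg14, Slc38a6, Ttn, D10Wsu102e, Tmem72, Sirt5, Rian, Kif24, Aqp4 and Nipal1, among them several non-coding RNAs. Tmem72, a membrane protein gene known for expression in kidney, had 99.3, 197, 179 and 192 CPM in IRP replicates 1 to 4, against 2227, 1517, 2177 and 2005 CPM in NP replicates 1 to 4. Slc38a6, an amino acid carrier, had 30.2, 42.2, 46.99 and 49.8 CPM in IRP replicates 1 to 4, against 703, 506, 704 and 617 CPM in NP replicates 1 to 4. Snhg14, a long non-coding RNA, had 7.49, 11.96, 11.6 and 12.3 CPM in IRP replicates 1 to 4, against 202, 108, 199 and 174 CPM in NP replicates 1 to 4. Every IRP library was far below every NP library in these genes, and the changes were -3.57 ± 0.63 (SE; adjusted p = 0.00043, edgeR), -3.90 ± 0.65 (SE; adjusted p = 0.0003, edgeR) and -3.98 ± 0.71 (SE; adjusted p = 0.00044, edgeR). Within IRV, however, Tmem72 had 2088, 1419, 147 and 179.7 CPM in replicates 1 to 4, against 1695, 2517, 1936 and 1652 CPM in the 4 NV libraries, so the shallow injured libraries looked like normal ones and the deep ones like IRP. All 12 genes differed by at least 2-fold between the deep and shallow IRV libraries, none passed in the set-adjusted fit, and only Aqp4 passed in the shallow vehicle comparison.

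The same held for the whole group of such falls. Of the 6737 genes, 248 differed at least 2-fold between the deep and shallow IRV libraries (on log2 of CPM plus 1), and they made up 202 of the 1334 falls and 10 of the 1596 rises. The 202 falls had a median of -4.19 in IRP against NP, and of -0.12 in the shallow vehicle comparison, where 3 passed. The other 1132 falls had a median of -0.61, and of -0.67 in the shallow vehicle comparison, where 573 passed. The other 1586 rises had a median of 0.44 there, and 516 passed. The 2-fold measure and the shallow vehicle comparison share IRV replicates 1 and 2, so the choice of genes partly fixes this contrast. Over all 1596 rises the median was 0.67 in IRP against NP and 0.44 in the shallow vehicle comparison. The median difference of deep minus shallow IRV libraries (log2 of CPM plus 1) was 0.26 over the 1596 rises. Over the 1334 falls it was -0.03. All 329 receptor genes tested were lower in IRP, 13 of them at 20 CPM or more. Counting only genes within 2-fold, a restriction added after the data were seen, 24.4% were higher and 17.4% lower.

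**Figure D4:**
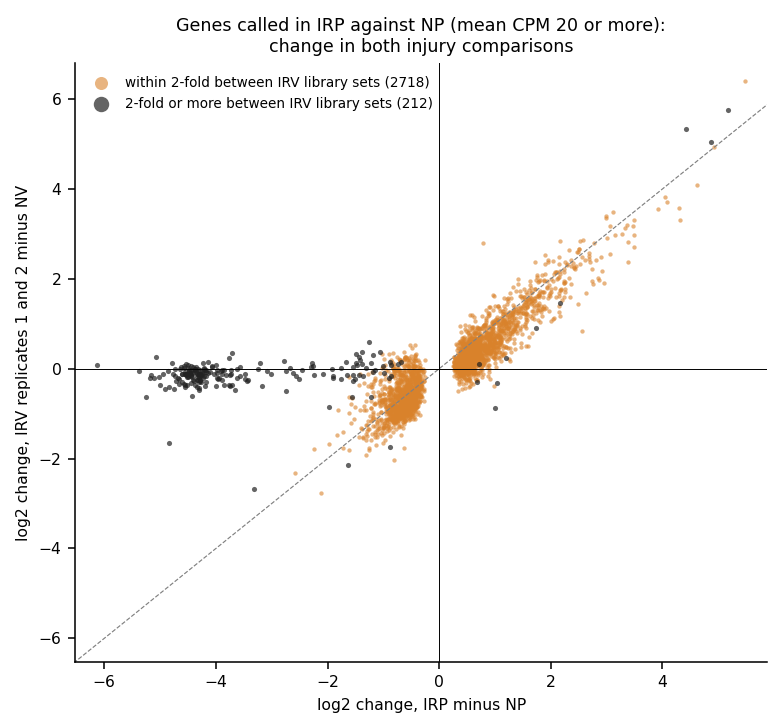
Log2 change in IRV replicates 1 and 2 minus NV (vertical) against log2 change in IRP minus NP (horizontal) for genes of mean CPM 20 or more past the threshold in IRP against NP; the dashed line marks equal change. Genes within 2-fold between the IRV library sets (orange) mostly have the same sign in both comparisons. Over all rises the median is 0.67 horizontally and 0.44 vertically. Most genes beyond 2-fold (dark) spread from -6 to 0 horizontally at a vertical value near 0.

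Under that restriction, the 12 largest falls included Ceacam2, Cyp4a14, Gldc, Pck1, Slc16a14, Nat8f6, Azgp1, Rdh16f2, Hexdc, Insig1 and Tfrc. Of the 12, 10 passed in the shallow vehicle comparison and 5 in the set-adjusted fit. Hexdc and Slc16a14 did not pass in the shallow vehicle comparison, at -0.19 ± 0.25 and -0.92 ± 0.36 (adjusted p = 0.72 and 0.11, edgeR). In IRP against NP they had -1.62 ± 0.24 and -1.82 ± 0.36. Hexdc lay near the 2-fold limit, with a deep minus shallow IRV difference of -0.95 on log2 of CPM plus 1. Nat8f6, a member of an acetyltransferase family expressed in proximal tubule with similar copies, had 20.8, 58.5, 38.6 and 21.2 CPM in IRP replicates 1 to 4, against 122, 116, 90.3 and 126 CPM in NP replicates 1 to 4. The change was -1.72 ± 0.26 (SE; adjusted p = 0.00014, edgeR), and -1.76 ± 0.20 in the shallow vehicle comparison. Ceacam2, an adhesion molecule with a close relative, had 1.21, 24.8, 2.94 and 2.40 CPM in IRP replicates 1 to 4, against 38.4, 49.8, 60.9 and 32.02 CPM in NP replicates 1 to 4. IRP replicate 2 was at 24.8 CPM and the other IRP libraries below 3 CPM, and the change was -2.58 ± 0.67 (SE; adjusted p = 0.0052, edgeR).

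Over the 6737 genes, the shallow vehicle comparison called 550 (8.17%) higher and 819 (12.2%) lower of 6736 tested. Of the 1596 rises 1453 had the same sign there and 521 passed, and of the 1334 falls 1211 had the same sign and 576 passed. In the set-adjusted fit 235 (3.49%) were higher and 95 (1.41%) lower; 1541 of the rises and 1252 of the falls kept their sign, and 234 and 86 passed. This fit has few libraries behind its set term, so its standard errors were wider: that of Havcr1 was 0.89, against 0.65 without the covariate.

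Whether injury changed a gene differently in mice given PJ34 and in mice given vehicle was tested as an interaction over all 16 libraries. No gene passed (0 of 13614, 0%; 1550 at an unadjusted p under 0.05; lowest adjusted p 0.33, edgeR). DESeq2 called 22 genes and limma-voom 0. IRP was all deep and IRV only in part, so the library set enters this test. With the set as a covariate, 428 genes had an unadjusted p under 0.05 (edgeR) and 0 passed. Without it, the genes of at least 20 CPM with the smallest interaction p were Rab43, Eef1d, Lmo4, Arhgap31, Acot13 and Slc38a6. Slc38a6 is among the falls above that differed between the IRV sets. Rab43, a small GTPase of the Golgi, had 64.8, 42.6, 55.1 and 57.00 CPM in IRP replicates 1 to 4 and 29.8, 32.7, 35.9 and 29.7 CPM in NP replicates 1 to 4, and 44.2, 41.9, 55.8 and 53.6 CPM in IRV and 3.42, 7.65, 0 and 12.4 CPM in NV. NV was low and all other groups were higher, and the interaction was -2.26 ± 0.47 (SE; unadjusted p = 0.00016, edgeR). Eef1d, an elongation factor subunit, and Lmo4, a LIM-domain cofactor, had interactions of 0.69 ± 0.18 and 0.71 ± 0.19. Of the sterol genes, Insig1 had -0.66 ± 0.24 (unadjusted p = 0.012, edgeR) and Sqle -0.54 ± 0.21 (unadjusted p = 0.019, edgeR), neither past the adjusted threshold. For Havcr1 the interaction was 0.28 ± 1.06 and for Col1a1 0.03 ± 0.47.

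The IRP libraries differed among themselves in a shared order. IRP replicate 2 had the lowest summed CPM of the tubular injury, matrix, macrophage, antigen presentation, interferon, complement and chemokine lists, and IRP replicate 1 the highest of all 7. For the proximal tubule, gluconeogenesis, citric acid cycle, respiratory chain, mitochondrial DNA, fatty acid and antioxidant lists, IRP replicate 1 was the lowest and IRP replicate 2 the highest. Summed injury markers were 6534, 3508, 4695 and 5526 CPM in IRP replicates 1 to 4, and summed proximal tubule enzymes 15381, 31031, 21009 and 20152 CPM. IRP replicate 2 was thus inside the NP range of 30181 to 38335 CPM for the enzymes while staying above the NP range of 1243 to 1349 CPM for the injury markers. Without IRP replicate 2, 1861 genes of at least 20 CPM were called lower in place of 1334, and without IRP replicate 1, 970.

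**Figure D5:**
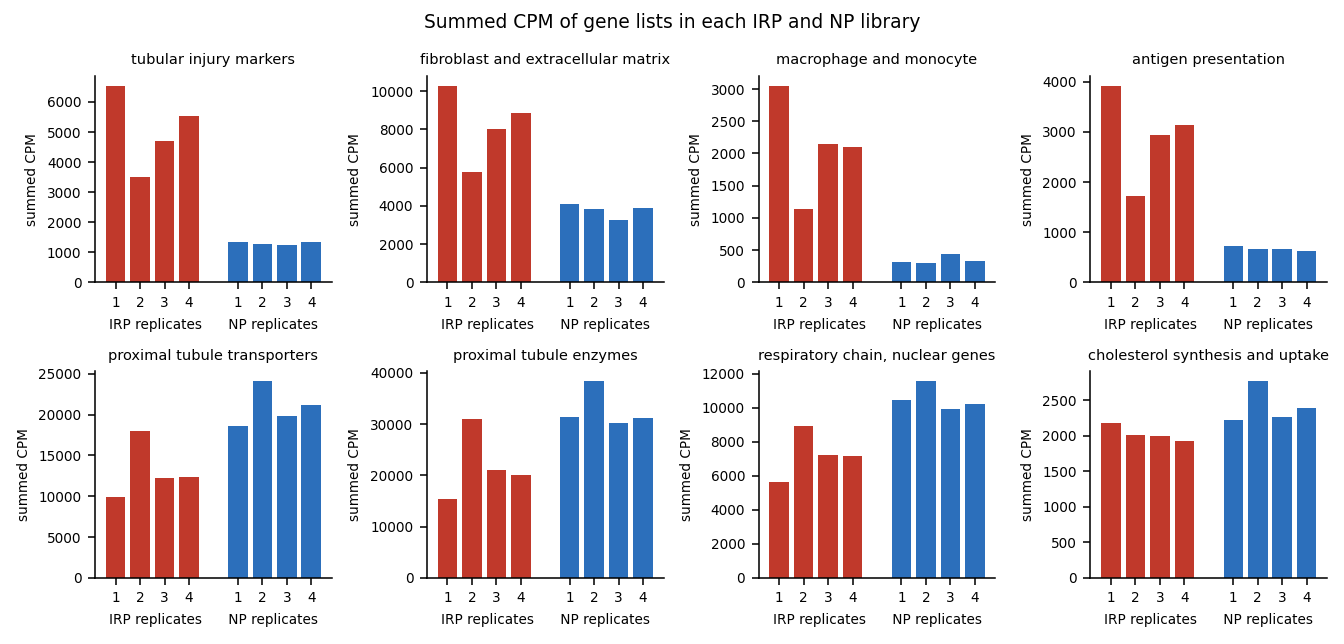
Summed CPM of 8 gene lists in each IRP library (red, left) and each NP library (blue, right); bars start at 0. IRP replicates 1 and 2 are the extremes in all lists but cholesterol synthesis and uptake, whose IRP sums run from 1928 to 2181 CPM, below the NP sums of 2223 to 2768 CPM.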

How the data were processed

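The expected counts per gene were deposited by the authors as whole numbers for 40472 Ensembl IDs, 40276 of which matched a symbol in a GENCODE M21 names table. Salmon 1.3.0 is among the tools in the submitters' processing notes, beside DESeq2 1.30.1, Trim Galore 0.6.6 and FastQC 0.11.3, with build GRCm39; no source used here says whether molecular identifiers were counted.

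From these counts, edgeR 4.0.16 (R 4.3.3) fitted its quasi-likelihood test to all 16 libraries with 1 term per group, after the filterByExpr filter (minimum count 10), which left 13614 genes, and TMM scaling. CPM values use the TMM-scaled totals, and adjusted p-values are by Benjamini-Hochberg over all genes tested, called at 0.05 or less. The set-adjusted fit added the deep or shallow set, which the report defines. DESeq2 1.42.0 and limma 3.58.1 (voom) were run as alternatives, along with other scalings, filters and left-out libraries. The fit was tested on simulated data. Replicate pairs differed beyond counting noise (lowest chi-square per gene 2.65).

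Members and gene lists were chosen with earlier results of these data known. The genes named are the 12 largest rises and 12 largest falls by log2 change and the 8 largest each way by CPM, without overlap, up to 4 members per list by p plus up to 2 against its direction (any member of lists of up to 13), the 6 smallest interaction p-values, and preset markers. Unnamed gene models, pseudogenes, immunoglobulin segments and receptor families fall outside this rule. The 12 falls within 2-fold of the IRV sets, and Ighg2c, Igha, Ms4a1, Cd3e, Cd4, Jchain, Il2rb, Parp9, Ccl28, Ccn1 and Ccn2, were added after their values were seen. Genes with near-identical copies are uncertain. A few genes that meet the naming rule were left unreported.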

Additional observations from a re-analysis of the deposited data

Results flagged for a closer look

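In 17 of 344 groups of 4 libraries examined, 1 library stood apart from the other 3 by a gap that, divided by the whole range, exceeded Dixon's 95% critical value. The groups were IRP and NP for 130 genes, the 39 gene lists and library measures. Chance flags about 1 group in 20, which is near the share seen. Some named genes were not examined in this way, so the flags are incomplete. Among them Ighg2c in IRP replicate 3 (224 CPM, the others 25.9 to 40.5) exceeded the same value. So did Cfd in IRP replicate 1 (116 CPM, the others 20.8 to 28.7) and Ccl28 in NP replicate 4 (10.9 CPM, the others 19.6 to 20.8).

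IRP replicate 2 accounts for 6 of the 17 flagged groups. It was high for Ceacam2, an adhesion molecule (24.8 CPM, the others 1.21 to 2.94), for Echs1 of fatty acid oxidation (77.9 CPM, the others 55.7 to 58.4), for the deacetylase gene Sirt3 (30.3 CPM, the others 20.1 to 21.4) and for the summed senescence and p53 targets (2169 CPM, the others 2072 to 2082). It was low for the interferon factor Irf1 (20.1 CPM, the others 32.6 to 33.6) and for Eef1d (41.1 CPM, the others 43.7 to 44.2).

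IRP replicate 1 was low for Snhg14 (7.49 CPM, the others 11.6 to 12.3), for the giant muscle protein gene Ttn (4.59 CPM, the others 5.87 to 6.07) and for the summed collecting duct genes (897.5 CPM, the others 1556 to 1658). IRP replicate 3 was high for the epithelial factor Ehf (68.3 CPM, the others 51.8 to 54.6).

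Among the NP libraries, replicate 2 was high for the carrier gene Slc16a9 (184 CPM, the others 149 to 155), Mdh2 (248 CPM, the others 187 to 191), Phyh (353 CPM, the others 295 to 304), the summed proximal tubule enzymes (38335 CPM, the others 30181 to 31427) and summed gluconeogenesis genes (8888 CPM, the others 6844 to 7107). NP replicate 1 was high for Kit (15.4 CPM, the others 14.1 to 14.1) and NP replicate 3 low for the ephrin gene Efnb2 (5.44 CPM, the others 16.3 to 18.0).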

How the results depend on the processing

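Every count of calls moved by over 1.5 times under some settings, and the cause was not tested. With counts scaled by library totals alone, 7012 genes were called higher and 1778 lower (4367 and 290 at 20 CPM or more). Without the filter on low counts these were 5805 and 10928 (3428 and 340), with the median of all genes at 0.42. Testing only genes of at least 20 CPM gave 1483 and 1593, with fewer genes tested. The set-adjusted fit gave 343 and 107 (235 and 95), and requiring more than 1.5-fold gave 1056 and 1847 (517 and 322). DESeq2 called 22 genes in the interaction, where edgeR called 0. Leaving out 1 library gave 1972 to 2595 higher and 2936 to 4104 lower (1175 to 1597 and 970 to 1861), and 0 for the interaction throughout.

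Of 130 genes followed individually, some turned direction. With totals alone Timp3 was 0.085, Cfb 0.15, Vegfa 0.20, Macrod2 0.017, Gapdh 0.0029, Rora 0.073 and Arhgap31 0.16. Without the filter Cfb was 0.013, Vegfa 0.070 and Arhgap31 0.0054, and in the shallow vehicle comparison Slc13a1 was -0.033, Arhgap31 0.23 and Hbb-bs 0.0088. The call was lost for 62 genes in the set-adjusted fit, 36 in the shallow vehicle comparison, 34 when 1.5-fold was required, 29 with totals alone, 25 without the filter, 7 by limma-voom and 0 by DESeq2.

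Replicate numbers did not pair the samples: deviations of same-numbered IRP and NP libraries correlated at 0.020, 0.151, 0.024 and 0.047, and 1 of 4 IRP libraries correlated best with its own number. With the replicate block 2560 genes were higher and 3245 lower (1549 and 1376), 0 in the interaction, and no call among the 130 genes was lost.

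NP libraries hold 1161138 to 1639849 counts, so a gene at 1 CPM rests on 1 or 2 counts there, and small differences of genes near that level were not detectable. Depth and injury cannot be told apart within IRP and NP alone.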
